A study of Schizosaccharomyces pombe with 4 samples.

Results

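Stress effector genes of the fission yeast Schizosaccharomyces pombe were followed in log-phase cells. They were grouped as genes at the end of the stress MAP kinase pathway, downstream of the transcription factor Atf1. Whether each of them answers to Atf1 was not tested. The 9 members were chosen by name, as ctt1, hsp9, tps1, ntp1, gpx1, cta3, zym1, rds1 and obr1, from 5133 genes listed in at least 1 library. The choice was made with earlier results of these data known. All 9 were listed in all 4 libraries, and all 9 passed the filter on low counts that left 5076 genes for testing. Y41F cells were sequenced as 2 libraries, Y41F-1 from strain SPBB297 and Y41F-2 from strain SPBB298. Wild type (WT) cells were also sequenced as 2 libraries, WT-1 and WT-2, both from strain KOR3006. The labels give Y41F by name only. By general knowledge of the work it is a tyrosine-to-phenylalanine substitution in histone H3, which gene counts cannot check. All cultures grew at 30 °C in YEA, a rich medium, and no stress was applied according to the labels. The labels do not say whether the cultures were separate, so each p-value reflects the spread among 4 libraries, and that spread may be technical. RNA came from whole cultures, in which fewer expressing cells and less RNA per cell cannot be told apart.

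The Sty1 MAP kinase is switched on by osmotic, oxidative, heat and starvation stress and phosphorylates Atf1, a bZIP factor that works with its partner Pcr1. Atf1 then raises a shared set of genes, the core environmental stress response, whose products remove peroxides, store protective sugars, stabilise proteins and membranes, and move ions. In unstressed growing cells these genes are usually kept low, and many also respond to glucose and nutrient supply. The members fall into peroxide-removing enzymes (the catalase gene ctt1, SPCC757.07c, and the glutathione peroxidase gene gpx1, SPBC32F12.03c) and trehalose enzymes (the trehalose-6-phosphate synthase gene tps1, SPAC328.03, and the neutral trehalase gene ntp1, SPBC660.07). The others are hsp9 (SPAP8A3.04c), for a small heat shock protein of the plasma membrane, the metallothionein gene zym1 (SPAC22H10.13), the P-type cation pump gene cta3 (SPBC839.06), rds1 (SPAC343.12), a gene first described as responsive to starvation and stress, and obr1 (SPAC3C7.14c), annotated as an NAD(P)H quinone dehydrogenase.

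The total expected count was 23616464 and 22773955 in Y41F-1 and Y41F-2, and 22260430 and 20845572 in WT-1 and WT-2. Libraries were compared in CPM, counts scaled to a common library depth with TMM factors. The first principal component of log2 CPM, with 45.3% of the variance, set the libraries numbered 2 apart from those numbered 1, and the second, with 38.5%, set Y41F apart from WT. The labels do not say what the numbers mark. Within Y41F, number and strain cannot be told apart, while both WT libraries came from 1 strain. In all, 2 contrasts were therefore read for every member: Y41F over WT, and libraries 2 over libraries 1.

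The members spanned a wide range of levels. Compared per length, as FPKM (fragments scaled by coding length and library depth), obr1 was the most abundant, with a mean of 1481 FPKM over the 4 libraries, followed by rds1 at 822, hsp9 at 770 and gpx1 at 557. Below them came zym1 at 277 FPKM, ctt1 at 186, tps1 at 179 and ntp1 at 89.4, and cta3 was lowest at 16.2. The ranges over the 4 libraries of neighbours in this order overlapped from obr1 down to tps1. Within each library, however, obr1 was above rds1 and gpx1 was above zym1 in 4 of 4, rds1 was above hsp9 and hsp9 above gpx1 in 3 of 4, and zym1 was above ctt1 and ctt1 above tps1 in 2 of 4. The range of ntp1, 70.1 to 106.8 FPKM, lay below that of tps1, 145.7 to 204.3, and above that of cta3, 12.7 to 21.4. The rank of zym1 among the 5133 listed genes differed most between libraries, at 295 in Y41F-2 and 338 in WT-2, against 2364.5 in Y41F-1 and 2849 in WT-1, while obr1 stayed between ranks 128 and 162. Together the 9 genes took 0.415% of the expected counts in Y41F-2 and 0.366% in WT-2, against 0.261% in Y41F-1 and 0.211% in WT-1.

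**Figure D1:**
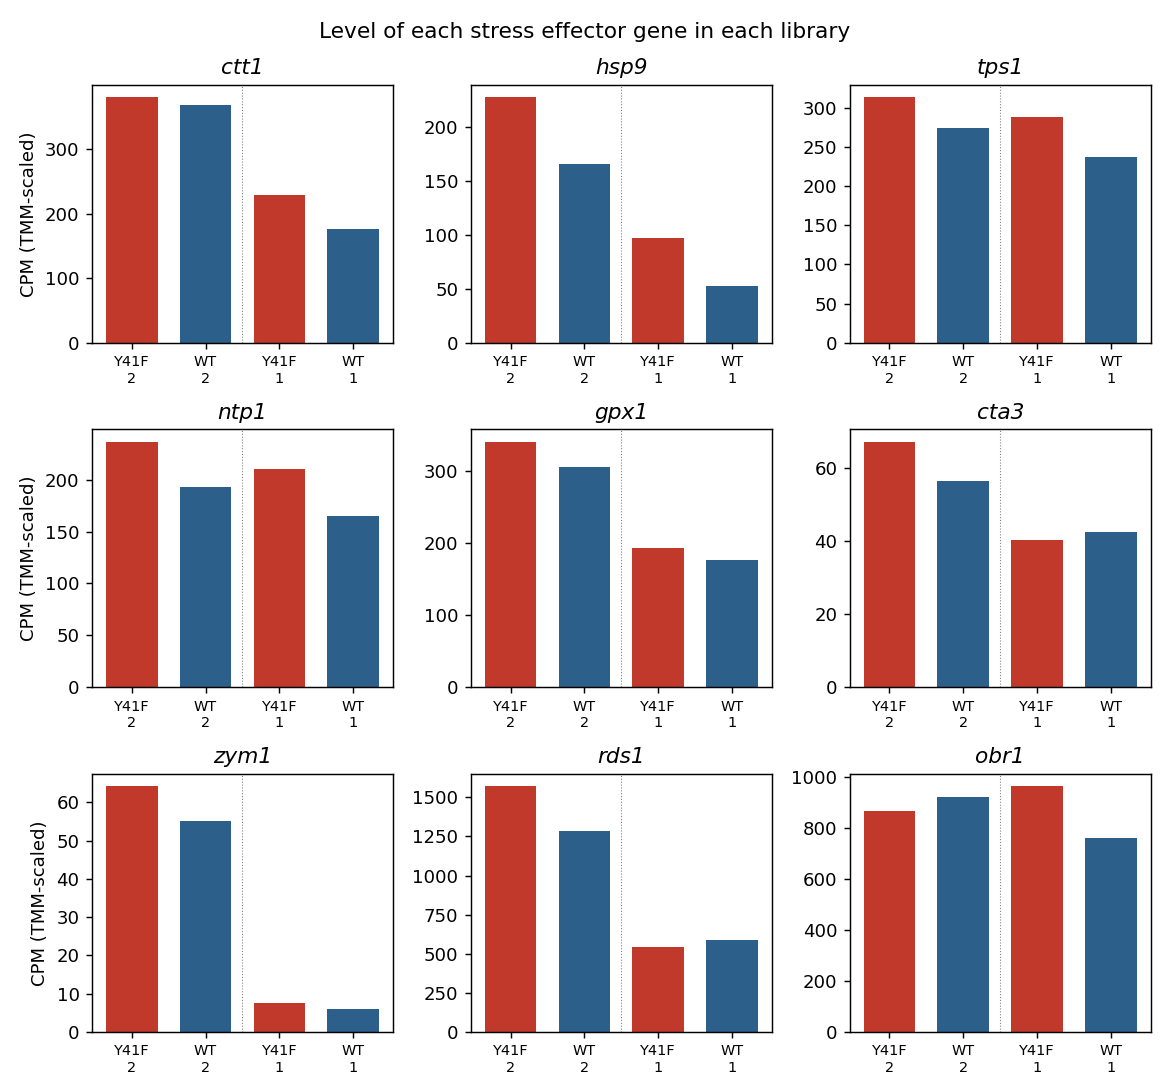
Level of each of the 9 genes in each library, in CPM (linear axes from 0), with Y41F in red and WT in blue and the libraries numbered 2 left of those numbered 1. For ctt1, hsp9, gpx1, cta3, zym1 and rds1 both libraries 2 stand above both libraries 1, as for zym1 with 64.2 and 55.2 CPM against 7.6 and 6.0.

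The larger difference for most members lay between libraries 2 and libraries 1, and it had the same direction in Y41F and in WT. Of the 9 genes, 6 were higher in libraries 2 (zym1, hsp9, rds1, ctt1, gpx1 and cta3) at an edgeR adjusted p under 0.05, in a fit with terms for genotype and number, and 0 were lower. Over all genes tested, 1.87% were called higher in libraries 2 by that fit (95 of 5076 genes), 0.0788% lower and 1.95% in either direction. The median log2 fold change of the 9 was 0.81, against 0.0031 over all genes tested. In all, 5 of the 9 were among the 50 genes with the smallest p. As the members were chosen with earlier results of these data known, these shares describe the set and are no independent test of it.

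The metallothionein gene zym1, whose small cysteine-rich product binds zinc and other metals, changed most. It had 64.2 CPM in Y41F-2 and 55.2 CPM in WT-2, against 7.6 CPM in Y41F-1 and 6.0 CPM in WT-1. The expected counts behind these were 1490 and 1162 in the libraries 2 and 182 and 128 in the libraries 1. Both libraries 2 were thus far above both libraries 1, while Y41F and WT lay side by side within each number. The log2 fold change of libraries 2 over 1 was 3.14 ± 0.13 (SE; edgeR adjusted p = 8.31e-06), the 4th smallest p of 5076, and the ratio was 8.36-fold in Y41F and 9.08-fold in WT.

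The small heat shock gene hsp9, a counterpart of Hsp12 of budding yeast, had 227 CPM in Y41F-2 and 165 CPM in WT-2, against 96.9 CPM in Y41F-1 and 52.6 CPM in WT-1. Its log2 fold change of libraries 2 over 1 was 1.44 ± 0.12 (edgeR adjusted p = 5.48e-04). Each number showed Y41F above WT, so that hsp9 carried the largest fitted Y41F over WT difference of the members, described below. The gene rds1 had 1571 CPM in Y41F-2 and 1284 CPM in WT-2, against 540 CPM in Y41F-1 and 585 CPM in WT-1. Its libraries 2 stood above its libraries 1 by a log2 fold change of 1.34 ± 0.11 (edgeR adjusted p = 6.24e-04). Beside zym1 and hsp9, it was the only member at least 2-fold higher in libraries 2 in both genotypes. Of the 5076 genes tested, 46 were.

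Both peroxide-removing enzymes rose in libraries 2 by similar amounts. The catalase gene ctt1 had 381 CPM in Y41F-2 and 369 CPM in WT-2, against 230 CPM in Y41F-1 and 177 CPM in WT-1. The log2 fold change of ctt1 was 0.89 ± 0.11 (edgeR adjusted p = 0.00424). The glutathione peroxidase gene gpx1 had 340 CPM in Y41F-2 and 306 CPM in WT-2, against 193 CPM in Y41F-1 and 176 CPM in WT-1. The log2 fold change of gpx1 was 0.81 ± 0.09 (edgeR adjusted p = 0.00308), with ratios of 1.77 in Y41F and 1.74 in WT. The cation pump gene cta3, whose product exports cations and which salt stress is known to raise, had 67.3 CPM in Y41F-2 and 56.4 CPM in WT-2, against 40.5 CPM in Y41F-1 and 42.5 CPM in WT-1. Its log2 fold change of 0.57 ± 0.11 only just passed the threshold (edgeR adjusted p = 0.0454), and DESeq2 did not call it (adjusted p = 0.196).

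The remaining members, tps1, ntp1 and obr1, did not pass this test, and for each of them at least 1 library of number 2 fell within the range of number 1. Their log2 fold changes of libraries 2 over 1 were 0.16 ± 0.09 for tps1, 0.19 ± 0.09 for ntp1 and 0.059 ± 0.11 for obr1 (edgeR adjusted p = 0.573, 0.474 and 0.897). Libraries 2 were above libraries 1 in both genotypes for 8 of the 9 genes, all but obr1, where 28.4% of all genes tested showed this. Genes annotated as overlapping tps1 (dbl4), gpx1 (gem7) and rds1 (SPAC343.20), which could share reads with them, averaged 40.3, 8.0 and 4.39 CPM. The libraries of the numbers did not overlap for the 6 called genes, with libraries 2 higher, as for 19.5% of all genes tested.

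**Figure D2:**
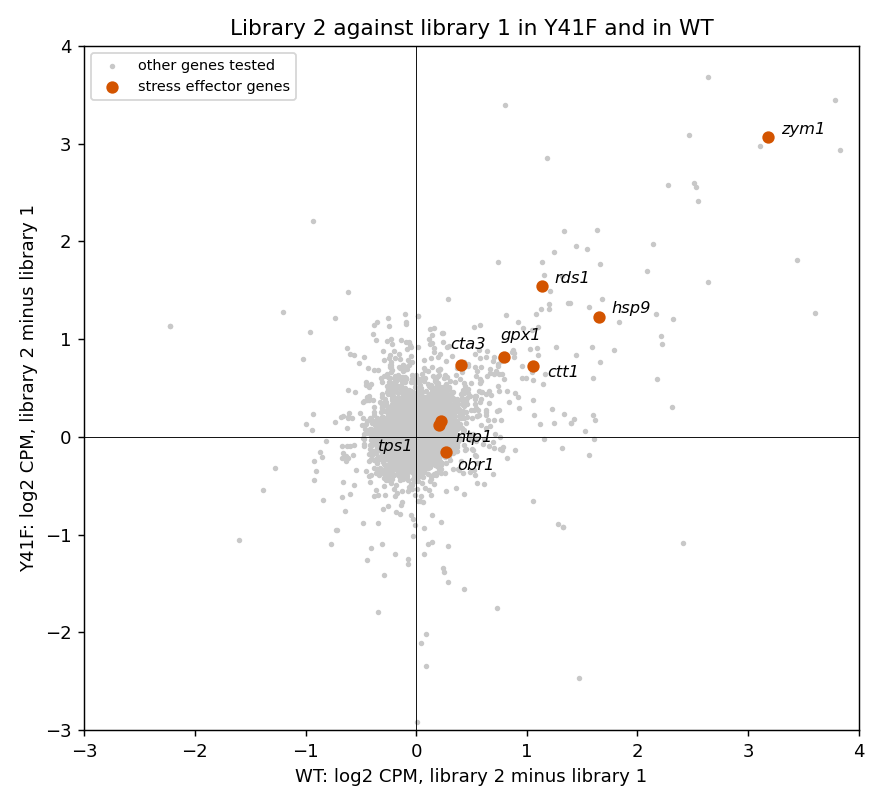
Difference in log2 CPM between library 2 and library 1 in WT (x axis) and in Y41F (y axis), with the 9 genes in orange and the other genes tested in grey. The genes zym1, rds1, hsp9, ctt1, gpx1 and cta3 lie away from 0 on both axes, zym1 at 3.18 in WT and 3.06 in Y41F, while tps1, ntp1 and obr1 lie near the origin; 9 genes fall outside the axes.

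Precision in this contrast came mostly from the spread shared across genes, since the fit with both terms leaves 1 residual degree of freedom per gene. With the number as the only term, so that the difference between Y41F and WT counted as error, edgeR called 11 genes (0.217% of those tested). Of the members, zym1 (adjusted p = 0.00729) and rds1 (adjusted p = 0.0431) were among these 11, while gpx1, ctt1, cta3 and hsp9 were not (edgeR adjusted p = 0.0829, 0.163, 0.280 and 0.353). DESeq2 with both terms called 5 of the 9 (1.46% of all genes tested), all but cta3 of the 6. Without WT-1 that fit on number alone called 0 of the 9 (lowest edgeR adjusted p = 0.0704, for zym1) and without Y41F-1 it called zym1 alone, and without WT-2 or Y41F-2 zym1 and rds1 were called. The log2 fold changes of the 6 genes were above 0 in all of these fits.

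Between Y41F and WT, no member was called in the fit with genotype as its only term, while 1 member, hsp9, was called once the number was added as a second term. All 9 had fold changes above 0 in the fit with genotype alone. The median log2 fold change was 0.18, against -0.0042 over all genes tested. In that fit edgeR called 0 of the 9, with adjusted p between 0.710 and 0.977, against 0.0197% of all genes tested (1 gene). At an unadjusted p under 0.05 it gave 1 of the 9, ntp1, and 6.7% of all genes tested. DESeq2, with genotype alone, also called 0 of the 9 (1.34% of all genes tested). With genotype alone the difference between the numbers counts as error, as the difference between genotypes does in the fit on number alone. With both terms, edgeR called 1 of the 9 higher in Y41F, and 1.71% of all genes tested in either direction.

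Of the members, the trehalose genes tps1 and ntp1 had both Y41F libraries above both WT libraries, which held for 2 of the 9 and for 19.2% of all genes tested. These shares are close. Trehalose is a disaccharide that protects proteins and membranes under stress, Tps1 takes part in making it and Ntp1 breaks it down. For ntp1, Y41F-1 and Y41F-2 had 211 and 237 CPM, against 165 and 193 CPM in WT-1 and WT-2. For tps1, Y41F-1 and Y41F-2 had 289 and 314 CPM, against 238 and 274 CPM in WT-1 and WT-2. The log2 fold changes of Y41F over WT were 0.32 ± 0.12 for ntp1 and 0.23 ± 0.11 for tps1 (edgeR adjusted p = 0.710 and 0.797), so neither passed. The profiles of the pair over the 4 libraries were the most alike among the members, with a root mean square difference of 0.048 in centred log2 CPM. This measure is not scaled by range, so genes that vary little come out alike. The range over the libraries was only 0.40 for tps1 and 0.52 for ntp1, and tps1 and obr1 also differed by only 0.11.

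The largest fitted Y41F over WT difference of a member was that of hsp9, a log2 fold change of 0.57 ± 0.61 (edgeR adjusted p = 0.890), averaging 162 ± 92.2 CPM in Y41F and 109 ± 79.6 CPM in WT (SD, n = 2 each). Its Y41F and WT libraries overlapped, because the 2 libraries of each genotype lay so far apart. Within the libraries 1 the ratio of Y41F to WT was 1.84, and within the libraries 2 it was 1.37. With the number as a second term, the log2 fold change of hsp9 was 0.66 ± 0.11 (edgeR adjusted p = 0.0327). In the fit with genotype alone it turned below 0 without WT-1 (-0.024) and without Y41F-2 (-0.17), where the genotypes no longer hold both numbers alike. For zym1 the log2 fold change was 0.23 ± 1.20 (edgeR adjusted p = 0.977), with a ratio of 1.26 within libraries 1 and 1.16 within libraries 2. Its standard error was the widest of the 9 in this fit. With the number as a second term it was 0.27 ± 0.12 (edgeR adjusted p = 0.437), so the difference of zym1 between Y41F and WT did not pass there either.

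The peroxide genes ctt1 and gpx1 had log2 fold changes of Y41F over WT of 0.16 ± 0.39 and 0.15 ± 0.35 (edgeR adjusted p = 0.955 each). The ratio of Y41F to WT was 1.30 for ctt1 within the libraries 1 and 1.03 within the libraries 2, and for gpx1 it was 1.09 and 1.11. For rds1 the log2 fold change was 0.18 ± 0.57 and for cta3 0.12 ± 0.26 (edgeR adjusted p = 0.965 and 0.951). Both changed direction with the number, at ratios of 0.923 for rds1 and 0.953 for cta3 within libraries 1, and 1.22 and 1.19 within libraries 2. Y41F was above WT within both numbers for the other members except obr1, that is for 6 of 9, where 29.2% of all genes tested showed this.

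The quinone dehydrogenase gene obr1, related to a family of flavodoxin-like proteins, followed neither contrast. Y41F-1 and Y41F-2 had 965 and 868 CPM, against 763 and 922 CPM in WT-1 and WT-2. The Y41F libraries straddled WT-2, and WT-1 was the lowest of the 4. Its log2 fold change of Y41F over WT was 0.12 ± 0.13 (edgeR adjusted p = 0.892).

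**Figure D3:**
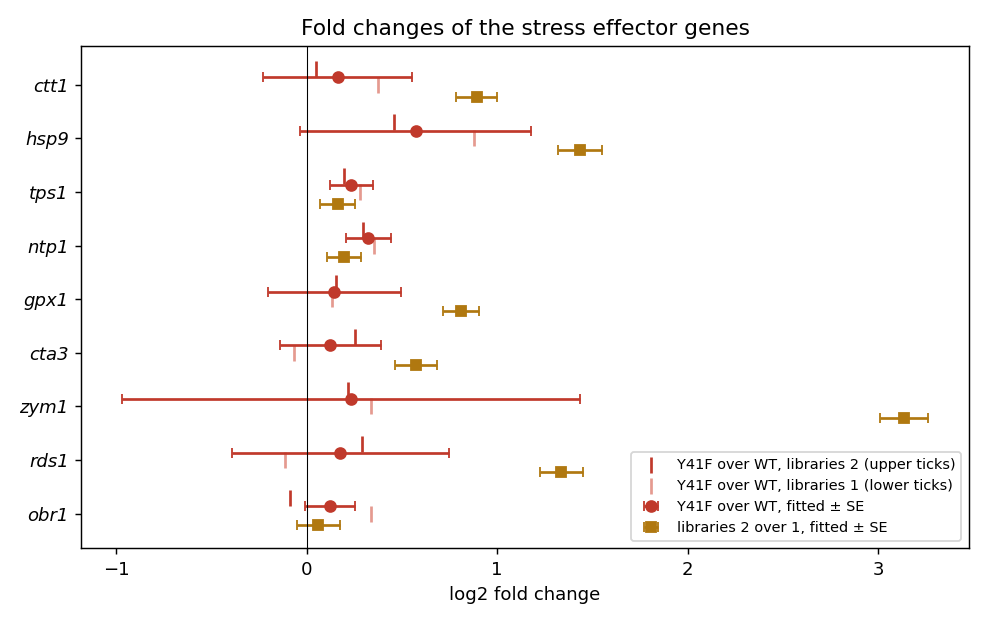
Fitted log2 fold changes with their standard errors for Y41F over WT (red circles) and libraries 2 over libraries 1 (brown squares), with the Y41F over WT difference within each number as ticks. The red bars come from the fit with genotype alone, in which the difference between the numbers counts as error. The squares come from the fit with both terms, so the widths of the 2 kinds of bar are not alike. The red bars cross 0 for all genes but tps1 and ntp1, while the squares of zym1, hsp9, rds1, ctt1, gpx1 and cta3 stand clear of it. For zym1 the values are 0.23 ± 1.20 for Y41F over WT and 3.14 ± 0.13 for libraries 2 over 1. With both terms, Y41F over WT was 0.27 ± 0.12 for zym1, 0.66 ± 0.11 for hsp9 and 0.089 ± 0.11 for rds1.

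The variation of each gene over the 4 libraries was split exactly into the part between Y41F and WT, the part between the numbers and a remainder. This split treats both contrasts alike and is given as a description, with no test. The number took 99.2% of the variation of zym1, 97.3% of that of rds1, 97.0% of that of gpx1, 91.7% of that of ctt1, 90.4% of that of cta3 and 80.8% of that of hsp9. Over all genes tested its median share was 30.4%, and it took over 50% for 34.6% of genes. The part between Y41F and WT was 73.1% for ntp1 and 66.4% for tps1, where the median over all genes tested was 30.2%. It was the largest of the 3 parts for 2 of the 9 members and for 1890 of 5076 genes tested. For hsp9 that part was 17.5%, and for ctt1, gpx1, cta3, zym1 and rds1 it was between 0.421% and 5.16%. For obr1 the remainder was the largest part, at 70.1%.

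**Figure D4:**
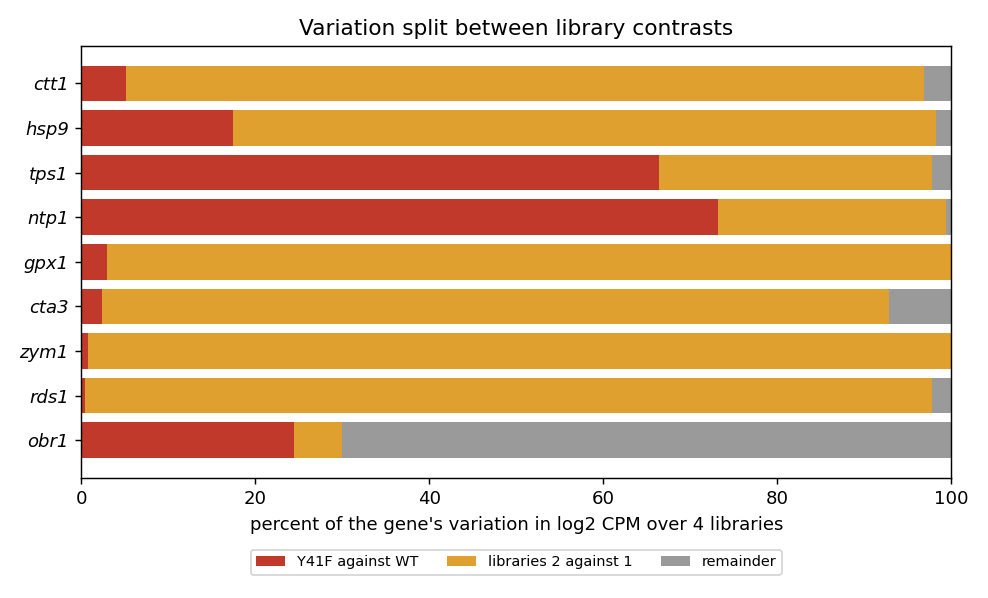
Percent of each gene's variation in log2 CPM over the 4 libraries that lies between Y41F and WT (red), between libraries 2 and 1 (yellow) or in the remainder (grey). The yellow part takes between 80.8% and 99.2% for ctt1, hsp9, gpx1, cta3, zym1 and rds1, the red part is largest for tps1 and ntp1, and the grey part is largest for obr1.

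Other genes of the pathway were read from 5 lists, some genes being in more than 1, with the members left out. The Sty1 and Atf1 signalling genes were kinases, phosphatases and other factors of the pathway, not all of them upstream of the members. Of these, edgeR called 0 of 19 between libraries 2 and 1, and their median log2 fold change was 0.048. At an unadjusted p under 0.05, edgeR gave 3 of the 19, where it gave 11.2% of all genes tested, and DESeq2 also called 0. The smallest p in this list belonged to atf21, for a factor related to Atf1, with a log2 fold change of 0.77 (edgeR adjusted p = 0.245), and it was highest in WT-2 at 17.2 CPM, against 8.75 CPM in Y41F-2, 7.18 CPM in Y41F-1 and 7.31 CPM in WT-1. For Y41F over WT, edgeR with genotype alone called 0 of 19 (1 at an unadjusted p under 0.05), and the phosphatase gene pyp2, which restrains Sty1 and is itself a target of Atf1, had the smallest p, at 0.98 (edgeR adjusted p = 0.362). DESeq2 called pyp2 higher in Y41F (0.97, adjusted p = 0.00406), as did edgeR with the number as a second term (0.95, adjusted p = 0.0252), each as the only called gene of the 19.

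Among other stress-response genes, edgeR called 4 of 21 higher in libraries 2 and 0 lower, with a median log2 fold change of 0.12. The 4 were fbp1, the glucose-repressed gene for fructose-1,6-bisphosphatase, at 2.56, the small heat shock gene hsp16 at 2.06, the vacuolar protease gene isp6 at 0.58 and the nuclear envelope protein gene ish1 at 0.52 (edgeR adjusted p = 7.80e-06, 2.07e-05, 0.0133 and 0.0247). In fbp1 the libraries 2 had 124 CPM in Y41F and 85.0 CPM in WT, against 20.4 CPM in Y41F-1 and 14.8 CPM in WT-1. The disaggregase gene hsp104 had the opposite sign, at -0.78 (edgeR adjusted p = 0.0524; DESeq2 adjusted p = 0.00485), with 77.3 CPM in Y41F-2 and 63.9 CPM in WT-2, against 170 CPM in Y41F-1 and 84.9 CPM in WT-1. DESeq2 called 3 of the 21 higher (fbp1, hsp16 and isp6; for ish1 its adjusted p was 0.0930) and 1 lower, hsp104. With number as the only term edgeR called fbp1 alone (adjusted p = 0.0442), and the adjusted p was 0.555 for hsp16, 0.280 for isp6 and 0.783 for ish1. For Y41F over WT edgeR with genotype alone called 0 of 21, and the list's median log2 fold change was 0.48. It gave 8 of the 21 an unadjusted p under 0.05, where it gave 6.7% of all genes tested. The smallest p of the 21 belonged to rsv2, for a zinc finger factor, at 0.86, and gcd1, for a glucose dehydrogenase, at 1.34 (edgeR adjusted p = 0.0799 each). Other fits did call genes of this list higher in Y41F, 7 of 21 by DESeq2 and 9 of 21 by edgeR with the number as a second term, and 0 lower. Over all genes tested these fits called 1.34% and 1.71% in either direction. This list, like the other lists, was chosen with earlier results of these data known. Its counts and median beside all genes are therefore a description and no independent test. Both counts include pyp2, which is also in the signalling list above. Both fits called rsv2 (adjusted p = 3.38e-09 by DESeq2 and 0.00498 by edgeR) and gcd1 (adjusted p = 7.59e-10 by DESeq2 and 5.81e-04 by edgeR). The values of fbp1 and hsp16 moved with the number in the direction of the members. Those of hsp104 and of the heat shock gene hsp78 (log2 fold change -0.24, edgeR adjusted p = 0.346) went the other way. The part of these genes in the members' difference was not tested.

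Of the other trehalose enzymes, edgeR and DESeq2 each called 1 of 3 higher in libraries 2. It was SPAC22F8.05, annotated as a trehalose-phosphate synthase like tps1, at a log2 fold change of 0.80 (edgeR adjusted p = 0.00855), with 157 CPM in Y41F-2 and 151 CPM in WT-2, against 103 CPM in Y41F-1 and 75.4 CPM in WT-1. With number as the only term it was not called (edgeR adjusted p = 0.280). The phosphatase gene tpp1, for the next step of trehalose synthesis, had 0.26, and tps3 had -0.14 (edgeR adjusted p = 0.315 and 0.619). For Y41F over WT none of the 3 was called by edgeR or DESeq2 and 1 had an unadjusted p under 0.05, and the largest difference was 0.38 in tps3 (edgeR adjusted p = 0.537), which stands beside 0.23 in tps1 and 0.32 in ntp1. The list of antioxidant enzymes and their regulators includes the peroxiredoxin, thioredoxin and glutaredoxin genes. The main edgeR fits and DESeq2 called 0 of its 21 genes in either contrast. At an unadjusted p under 0.05, edgeR gave 4 for libraries 2 over 1 (11.2% of all genes tested) and 1 for Y41F over WT (6.7% of all genes tested). The nearest to the threshold was the glutaredoxin gene grx1, at 0.43 for libraries 2 over 1 (edgeR adjusted p = 0.0545). Scaled by library size alone, edgeR called 3 of the 21 higher in libraries 2 (grx1, gst2 and gst3) and 162 of 5076 genes in all. Limma called the same 3 on log2(FPKM + 1) and on log2(FPKM + 5). Without the filter on low counts, edgeR called grx1 alone. With the number as a second term, edgeR called 1 of these 21 between Y41F and WT, the glutathione transferase gene gst3, higher in Y41F. Cation and metal transport genes likewise had 0 of 21 called in either contrast by edgeR and by DESeq2 (2 at an unadjusted p under 0.05 in each, by edgeR), with a median of -0.040 for libraries 2 over 1 beside 0.57 in cta3 and 3.14 in zym1.

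**Figure D5:**
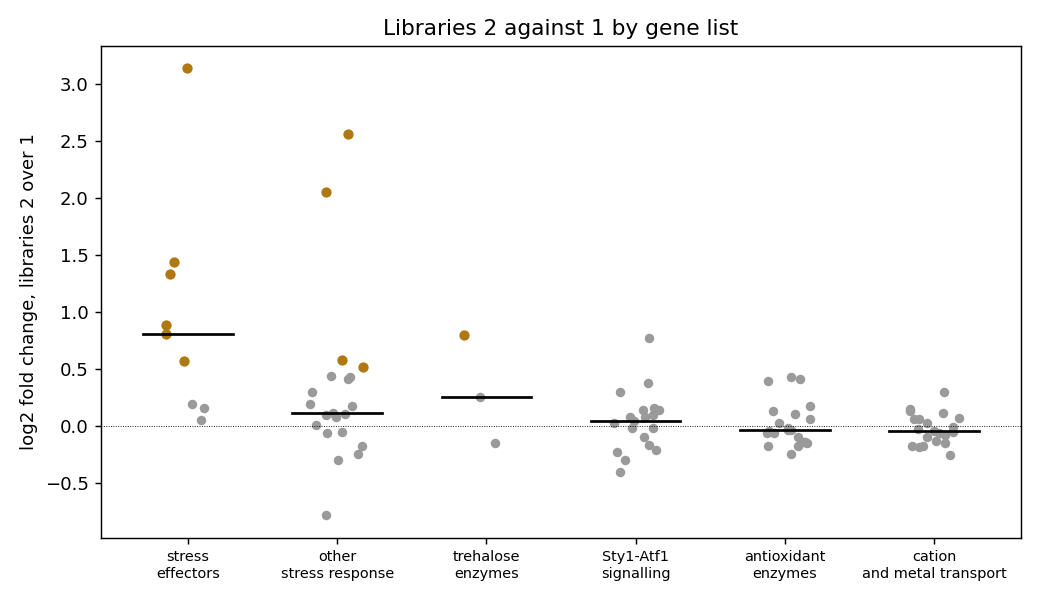
Fitted log2 fold change of libraries 2 over 1 for each gene of the 9 stress effectors and of the 5 lists, with a bar at each median. Genes called at an edgeR adjusted p under 0.05 are brown and others grey. The stress effectors have a median of 0.81 and 6 called genes, the other stress-response genes 0.12 and 4, the trehalose enzymes 1 called, and the other lists 0.

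For the 3 members with the widest range over the libraries, the most similar profiles were sought by the root mean square difference in centred log2 CPM over the 4 libraries, among 4853 genes averaging 5 CPM or more. The nearest to zym1 were gpd3, for a glyceraldehyde 3-phosphate dehydrogenase, at 0.26, prl65 at 0.31 and fbp1 at 0.31. The nearest to hsp9 were mug14, annotated as an adducin, at 0.046, SPAC637.03, uncharacterized, at 0.10 and pdc201, for a pyruvate decarboxylase, at 0.16. The nearest to rds1 were SPAC4H3.03c, annotated as a glucan glucosidase, at 0.044, hsp3101, for a glyoxalase, at 0.13 and SPCC569.09, uncharacterized, at 0.15.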

How the data were processed

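RNA-seq of total RNA gave 1 gene table per library. Per the file headers, the authors deposited an expected count, as RSEM writes it, and an FPKM per gene. RSEM, BWA, Bowtie and the build ASM294v2 appear in the submitters' processing notes, without versions or roles. No source used here gives the strand handling, so overlapping genes may share reads. Gene lengths in the deposited tables are multiples of 3, hence coding lengths. A gene missing from one table was taken as 0. Expected counts were rounded and tested with edgeR 4.0.16 (quasi-likelihood, TMM scaling, default filter, R 4.3.3), with Benjamini-Hochberg adjustment over 5076 genes and a threshold of 0.05. The fit for Y41F against WT had genotype only, and the fit for libraries 2 against 1 had genotype and number. SE is the absolute fold change (log2) over the square root of F. Log2 CPM per library used a prior count of 2. DESeq2 1.42.0 and limma 3.58.1 served as alternatives. Libraries of 1 genotype were not duplicates (chi-square per degree of freedom 63.3 in Y41F and 43.0 in WT). Identifiers were matched to symbols and annotations in RefSeq's ASM294v3, for 5100 of 5133 genes. That build differs from the files'. Promoter motifs, planned at first, were not analysed here, since no promoter sequences were available. Members and lists were chosen with earlier results of these data known. All members are named, with list genes that were called or, with a mean of at least 5 CPM, had the 2 smallest p per direction, and for the 3 widest-ranging members the 3 most similar genes.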

Additional observations from a re-analysis of the deposited data

Results flagged for a closer look

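In 3 members the direction of a difference was opposite in the paired sets of libraries, with 1 library against 1 in each. For obr1, library 2 minus library 1 was -0.15 on the log2 CPM scale in Y41F and 0.27 in WT, and Y41F minus WT was 0.34 within libraries 1 and -0.09 within libraries 2. For rds1, Y41F minus WT was -0.12 within libraries 1 and 0.29 within libraries 2, and for cta3 it was -0.069 and 0.25. These differences between sets were not tested, since 4 libraries leave no replicate for them.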

How the results depend on the processing

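Of the 9 members, 0 were called between Y41F and WT in 10 of 11 alternatives. The exception was the replicate block, a term for library number, under which edgeR called 87 of 5076 genes and 1 member, hsp9, at 0.66 (adjusted p = 0.0327). The labels do not say that the numbers pair the libraries, and the correlation between the library 2 minus 1 differences of Y41F and WT was 0.466 across 4862 genes, which are not independent. The count over all genes was 68 with DESeq2, 3 on log2(FPKM + 1) and between 0 and 197 when 1 library was left out. Leaving out 1 library turned the direction of Y41F over WT for 7 members and 2 list genes: the log2 fold change ranged from -0.27 to 0.78 for ctt1, -0.17 to 1.62 for hsp9, -0.32 to 0.60 for gpx1, -0.29 to 0.45 for cta3, -2.01 to 2.58 for zym1, -0.79 to 0.85 for rds1, -0.0055 to 0.26 for obr1, -0.26 to 0.020 for wis1 and -1.11 to 0.12 for atf21. The negative values of members came without WT-1 or Y41F-2. These fits have genotype alone, and Y41F and WT then no longer hold both numbers alike, so the difference between the numbers enters the fold change. Set 1 library against 1, Y41F was above WT within both numbers for ctt1, hsp9, gpx1 and zym1. For rds1, cta3 and obr1 the direction changed with the number. The log2 fold change of Y41F over WT stayed above 0 for tps1 (0.14 to 0.34) and ntp1 (0.22 to 0.44). The count for libraries 2 over 1 was 162 when counts were scaled by library size alone, 176 on log2(FPKM + 1), 182 on log2(FPKM + 5) and 11 with number as the only term, which called 2 members. With number as the only term and 1 library left out it was between 0 and 17, with 0 to 2 members. The only other turns were in obr1 (-0.11 to 0.24) and tps3 (-0.34 to 0.069). Each lone library in these fits is assumed to vary like the others. Apart from the loss of balance when 1 library is left out, the cause of these shifts was not tested. With 2 libraries per genotype, each member had between 128 and 36458 expected counts per library. How far depth, rather than the spread between libraries, limits the members was not tested.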

Other observations

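Genes next to the members on the chromosome, from the order of protein-coding genes in the RefSeq annotation, mostly did not share the difference between libraries 2 and 1. Of 18 neighbours, all tested, 1 was called, where 1.95% of all genes tested were. The log2 fold change was above 0 for 13 of the 18, beside 2575 of 5076 genes tested. Their median log2 fold change was 0.055, against 0.81 for the members. The neighbours of zym1, SPAC22H10.06c and scd2, had 0.49 and -0.021, those of hsp9, zip3 and ski7, had 0.028 and 0.29, and those of rds1, SPAC343.21 and SPAC343.20, had -0.25 and -0.65, and none of them was called. The called neighbour, named after its value was seen, was SPAC3C7.13c, annotated as a glucose-6-phosphate dehydrogenase, at 1.55 (edgeR adjusted p = 1.17e-04). It lies beside obr1, the member with the smallest difference at 0.059. In 3 cases a neighbour overlaps its member in that annotation: dbl4 with tps1, gem7 with gpx1 and SPAC343.20 with rds1. Since strand handling is unknown, these may share reads; gem7 averaged 8.0 CPM and SPAC343.20 averaged 4.39 CPM over the 4 libraries, and dbl4 40.3 CPM.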
